A study of Daphnia magna with 12 samples.

Results

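A set of 55 genes of the water flea Daphnia magna was described, chosen because their level departed from control after C2mimCl (1-ethyl-3-methylimidazolium chloride) and stayed near control after the other organic chlorides of the study, C12mimCl (1-dodecyl chloride-3-methylimidazolium in the labels) and CholCl (cholinium chloride). Levels were CPM, that is, reads of a gene relative to the size of its library, and the median of the 3 libraries of a group, plus 0.1 CPM, stood for the group. A member had a control median of 5 or more, a C2mimCl median at least 2 times control or no more than 0.5 of it, and C12mimCl and CholCl medians between 0.667 and 1.5 times control. Of 20266 genes with 10 or more reads in total, 20 met these conditions as higher genes and 35 as lower genes. The members were thus chosen by the measured medians of all 4 groups and every library, so the departure from control and the nearness of the other salts are properties of the choice and are given as descriptions.

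Ionic liquids are organic salts with low melting points that are used as solvents. Imidazolium cations carry a charged ring with alkyl side chains: a long chain makes the cation act like a detergent on membranes, whereas the ethyl form is small and water-soluble. Cholinium is a quaternary ammonium ion that animals also take in as a nutrient, as a building block of membrane lipids and of acetylcholine.

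The 12 libraries came from 12 vessels, 3 with medium alone and 3 with each salt at its EC20, the concentration that gives 20% of an effect. Neither which effect this was nor the molar doses are stated in the labels. All animals were neonates of brood 3 from the same bulk cultures, under 10 h old at the start, held without food for 48 h at 120 animals per 500 mL, and 90 animals that were still active were pooled from each vessel. Whole bodies were extracted, so fewer cells of a type and less RNA per cell cannot be told apart. The libraries held 12502019 to 15539051 reads in genes. The files number the genes and pair no number with a name, and none of the numbers (0 of 46334) was found in the reference table, so no role is given for any gene and the tissue could not be checked against markers. Library C2mimCl 1 stood apart from the other C2mimCl libraries, and its values are given throughout.

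Few of the genes that departed from control after C2mimCl did so under C2mimCl alone. Among the 10690 genes with a control median of 5 or more, 290 had a C2mimCl median at least 2 times control and 1056 had one no more than 0.5 of control. The members were 6.9% of the former and 3.31% of the latter. Of the 1056 lower genes, 948 were also more than 1.5-fold lower after CholCl, 183 were so after C12mimCl, and 417 were more than 1.5-fold higher after C12mimCl. Of the 290 higher genes, 213 were more than 1.5-fold lower after C12mimCl and 190 after CholCl, while 18 and 56 were more than 1.5-fold higher. All of these comparisons share the 3 control libraries. At the edges of the rule, Dapma7bEVm018590 (2.02 times control) and Dapma7bEVm030716 (2.05) lay just inside, and Dapma7bEVm002040 (1.94) and Dapma7bEVm018698 (1.88) just outside. On the lower side Dapma7bEVm009503 and Dapma7bEVm000927 (both 0.499 of control) lay just inside, and Dapma7bEVm004816 (0.503) and Dapma7bEVm007809 (0.507) just outside.

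**Figure D1:**
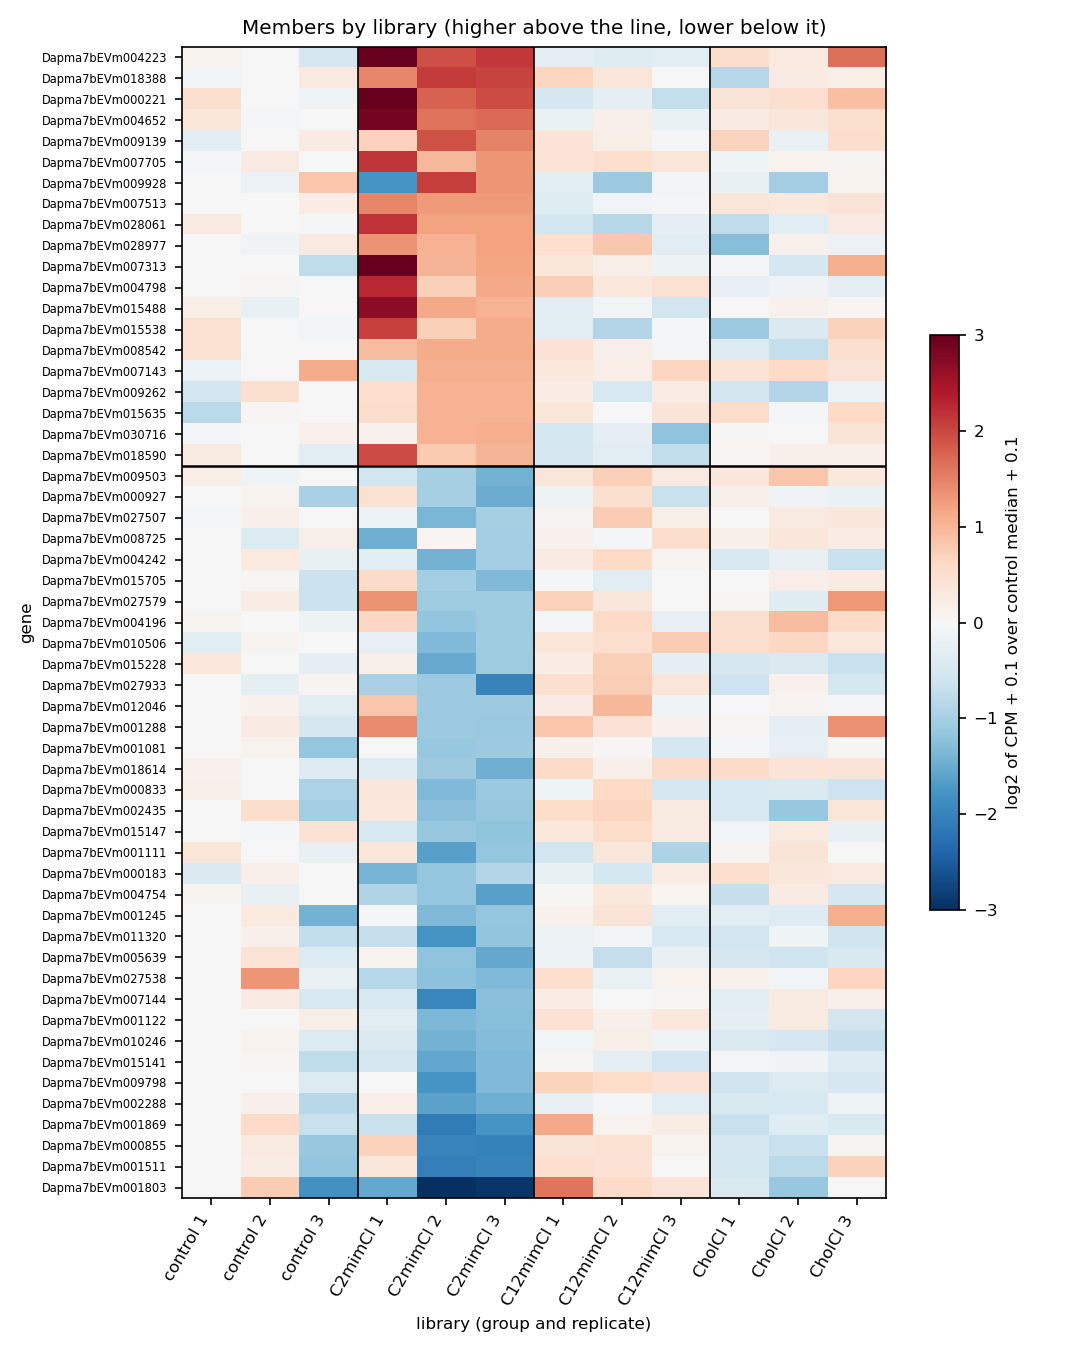
Each row is 1 of the 55 members and each column 1 of the 12 libraries; colour gives log2 of CPM + 0.1 over the control median + 0.1, with the scale ending at 3 in each direction. The 20 higher members are red in most C2mimCl columns, and the 35 lower members are blue in C2mimCl 2 and 3 but mostly pale in C2mimCl 1.

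The 20 higher members had C2mimCl medians from 2.02 to 4.36 times control, with a median of 2.28, and 4 of them reached 3 times control. The largest ratio was that of Dapma7bEVm004223, which stood at 13.6, 12.7 and 8.99 CPM in control libraries 1 to 3 and at 121, 49.0 and 55.7 CPM after C2mimCl. It had 10.5, 9.91 and 9.95 CPM after C12mimCl and 18.2, 15.6 and 40.3 CPM after CholCl. The C2mimCl libraries lay above all others, although CholCl 3 came near them.

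Dapma7bEVm018388 had 36.5, 38.7 and 47.2 CPM in controls and 107, 167 and 159 CPM after C2mimCl, 4.09 times control by medians. Its highest value elsewhere was 60.8 CPM in C12mimCl 1, so the groups did not overlap, and C2mimCl 1 was here the lowest of its group. Dapma7bEVm000221 had 118, 84.7 and 78.6 CPM in controls and 1130, 291 and 329 CPM after C2mimCl, 3.88 times control. It was between 51.4 and 68.9 CPM after C12mimCl and between 112 and 159 CPM after CholCl, below every C2mimCl library. Dapma7bEVm004652 had 88.9, 65.6 and 68.8 CPM in controls and 506, 214 and 222 CPM after C2mimCl, 3.23 times control, with all libraries of the other salts at or under 96.2 CPM.

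The next members by ratio differed in how far they separated the groups. Dapma7bEVm009139 had 121, 153 and 180 CPM in controls and 245, 575 and 427 CPM after C2mimCl, where C2mimCl 1 exceeded the 242 CPM of CholCl 1 by little. Dapma7bEVm007705 had 11.3 to 13.9 CPM in controls and 51.8, 22.9 and 29.2 CPM after C2mimCl, above the 16.5 CPM that was its highest value elsewhere. The steadiest of the larger ratios was that of Dapma7bEVm007513, with 26.5, 26.7 and 31.0 CPM in controls and 74.2, 64.4 and 64.9 CPM after C2mimCl. After the other salts it lay between 20.8 and 35.2 CPM, so its C2mimCl libraries stood clear of the other 9 and close to each other. Dapma7bEVm028061 had 5.28 to 6.54 CPM in controls and 24.5, 12.7 and 12.7 CPM after C2mimCl, and Dapma7bEVm028977 had 16.0 to 20.7 CPM and then 44.0, 35.7 and 39.6 CPM.

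The higher member with the most reads was Dapma7bEVm015635, at 1844, 3286 and 3232 CPM in controls and 4632, 6670 and 6651 CPM after C2mimCl. It also had up to 4242 CPM after C12mimCl and 4887 CPM after CholCl, so C2mimCl 1 overlapped the CholCl libraries. Its CholCl median was 1.47 times control, near the limit of the rule. Together the 20 higher members held 0.257% to 0.424% of gene reads in controls, 0.763% to 0.793% after C2mimCl, 0.375% to 0.491% after C12mimCl and 0.398% to 0.553% after CholCl, and this gene made up most of these shares.

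The 35 lower members had C2mimCl medians from 0.132 to 0.499 of control, with a median of 0.454. They were thus 2.2-fold lower at the median and 7.6-fold lower at the most, and 4 genes were at least 3-fold lower. Dapma7bEVm001803 had the lowest ratio, with 14.7, 25.1 and 4.10 CPM in controls and 5.01, 1.32 and 1.85 CPM after C2mimCl. It had 45.1, 21.9 and 19.4 CPM after C12mimCl and 10.9, 6.60 and 14.9 CPM after CholCl. Control 3 lay under C2mimCl 1, so C2mimCl and control overlapped. This gene also held the lowest read number of any member in any library, 16 reads.

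Dapma7bEVm001511 had 795, 933 and 350 CPM in controls and 999, 192 and 198 CPM after C2mimCl, a median of 0.249 of control. After CholCl it had 549, 456 and 1274 CPM and after C12mimCl 1120, 1065 and 803 CPM. C2mimCl 2 and 3 were the lowest of the 12 libraries, and C2mimCl 1 was above all controls. Dapma7bEVm000855 likewise had its highest C2mimCl value in library 1 and its lowest control value in library 3, at 95.9, 115 and 43.3 CPM in controls and 156, 24.1 and 23.4 CPM after C2mimCl. Dapma7bEVm001869 had 75.9, 114 and 47.7 CPM in controls and 47.9, 17.7 and 21.7 CPM after C2mimCl, where C2mimCl 1 was about level with control 3.

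Dapma7bEVm009798 had 349, 349 and 263 CPM in controls and 348, 102 and 138 CPM after C2mimCl. It lay at 555, 508 and 470 CPM after C12mimCl, 1.45 times control, and at 230, 262 and 245 CPM after CholCl, 0.7 of control, so both other salts were near a limit of the rule on opposite sides. Dapma7bEVm002288 had 29.2, 32.5 and 16.2 CPM in controls and 33.6, 9.59 and 10.5 CPM after C2mimCl, and Dapma7bEVm015141 had 104, 108 and 61.6 CPM and then 73.3, 35.2 and 41.6 CPM. C2mimCl 1 was above every control in Dapma7bEVm002288 and between control 3 and the other controls in Dapma7bEVm015141. The other lower members among the 10 largest ratios, Dapma7bEVm010246, Dapma7bEVm001122 and Dapma7bEVm007144, had control medians under 10 CPM and C2mimCl medians from 2.46 to 3.89 CPM.

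Dapma7bEVm015147, with 437, 424 and 593 CPM in controls and 319, 198 and 191 CPM after C2mimCl, did not overlap any other group, since the other salts lay between 373 and 642 CPM. Together the 35 lower members held 0.249% to 0.41% of gene reads in controls, 0.395% in C2mimCl 1, and 0.112% and 0.125% in C2mimCl 2 and 3. They held 0.36% to 0.461% after C12mimCl and 0.294% to 0.379% after CholCl. The summed share of C2mimCl 1 was thus within the control range and those of the other C2mimCl libraries were below every other library.

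**Figure D2:**
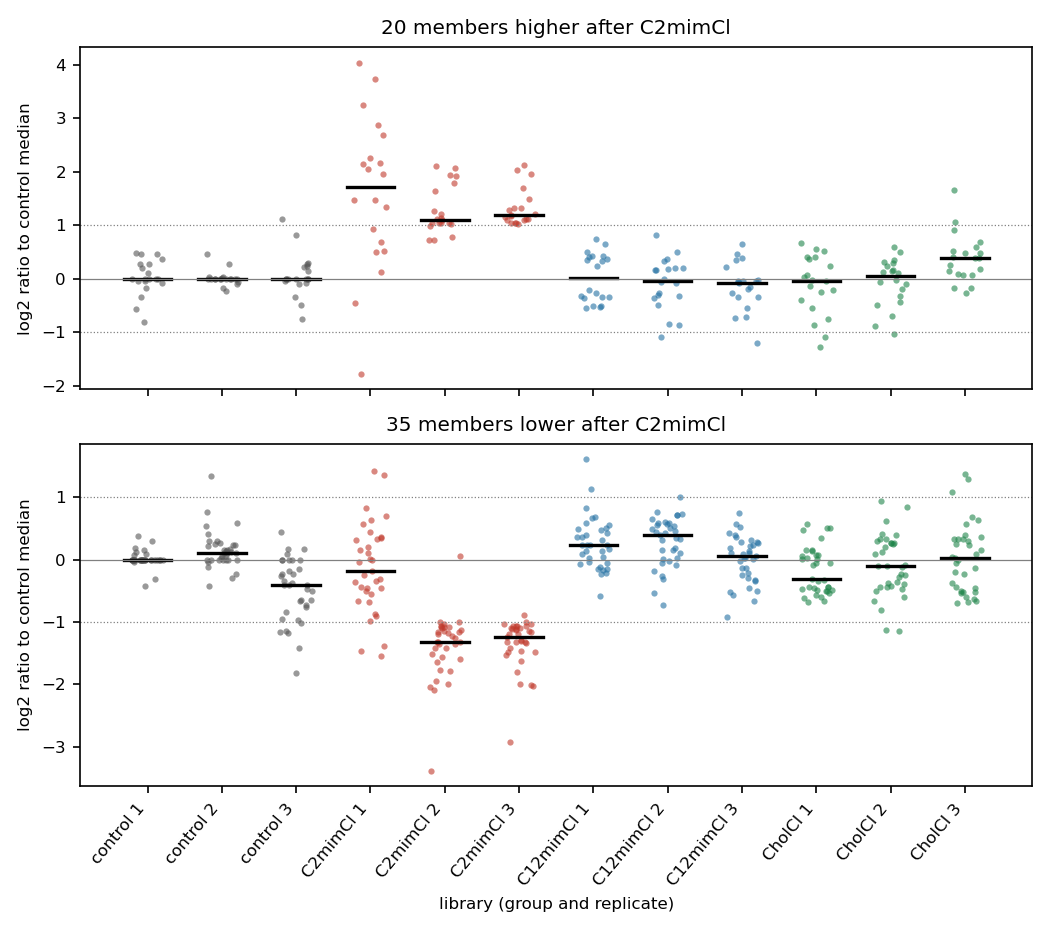
Each point is 1 member in 1 library, placed by log2 of its CPM + 0.1 over the control median + 0.1; black bars are medians over the members, and dotted lines mark 2-fold. C2mimCl 1 has the highest median ratio among the higher members (3.33) and a median ratio of 0.884 among the lower members, against 0.401 and 0.421 in C2mimCl 2 and 3.

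C2mimCl 1 departed from its group in 2 ways. Among the lower members it lay nearer control than C2mimCl 2 and 3 did, with a median ratio of 0.884 against 0.401 and 0.421. It was at or under 0.5 of the control median in 3 of 35 genes and between that and 0.667 in 5. It was within 1.5-fold of control in 22 and more than 1.5-fold above control in 5. It was more than 1.5-fold from control in 37.1% of these members, against 14% of the 3586 genes meeting the conditions on level and other salts. It was the highest C2mimCl library in 33 of 35, and it was at least 2 times the higher of C2mimCl 2 and 3 in 19. Among the higher members it was the end library of its group, the highest of the C2mimCl libraries in 12 of 20 and the lowest in 8. It was at least 2 times the higher of C2mimCl 2 and 3 in 6, yet it passed 2 times control in 13 of 20, where C2mimCl 2 did so in 16 and C2mimCl 3 in 20. It was within 1.5-fold of control in 4 higher members and lower than control by more than 1.5-fold in 1, Dapma7bEVm009928. Over the 3586 genes that met the conditions on level and on the other salts, C2mimCl 1 was the highest of its group in 45.9% and the lowest in 42.5%. It was thus the end library in most of those genes too, and this place is not particular to the higher members. The choice by medians bears on the count for the lower members, since a library near control leaves the median to the less extreme of the other libraries.

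The lower members in which C2mimCl 1 lay farthest from the other libraries were Dapma7bEVm000855, described above, Dapma7bEVm001288 and Dapma7bEVm027579. Dapma7bEVm001288 had 95.5, 113 and 67.5 CPM in controls and 256, 44.9 and 44.1 CPM after C2mimCl, with 100, 78.8 and 247 CPM after CholCl. Dapma7bEVm027579 had 60.5, 70.1 and 38.4 CPM in controls and 155, 28.8 and 29.0 CPM after C2mimCl, with 63.0, 47.1 and 148 CPM after CholCl. In both genes C2mimCl 1 and CholCl 3 were the high libraries of their groups and control 3 the low one. For both the mean of the C2mimCl group therefore lay above the control mean while its median lay below the control median.

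Among the higher members the widest departures of C2mimCl 1 ran in both directions. Dapma7bEVm009928 had 28.4, 25.0 and 50.2 CPM in controls and 8.18, 120 and 71.0 CPM after C2mimCl, so that C2mimCl 1 was the lowest and C2mimCl 2 the highest of the 12 libraries. Dapma7bEVm007313 had 7.03, 7.07 and 4.10 CPM in controls and 117, 14.3 and 16.0 CPM after C2mimCl, 16.5 times the control median in C2mimCl 1 and 2.02 and 2.26 times in the others. In Dapma7bEVm000221 the corresponding ratios were 13.3, 3.44 and 3.88. C2mimCl 2 and 3 lay within 1.5-fold of each other in 19 of 20 higher and 31 of 35 lower members, and in 98.3% of the 3586 genes. An exception was Dapma7bEVm008725, at 1.89, 5.62 and 2.61 CPM after C2mimCl, where C2mimCl 2 was at the control level of 4.03 to 6.15 CPM and C2mimCl 1 was the lowest.

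**Figure D3:**
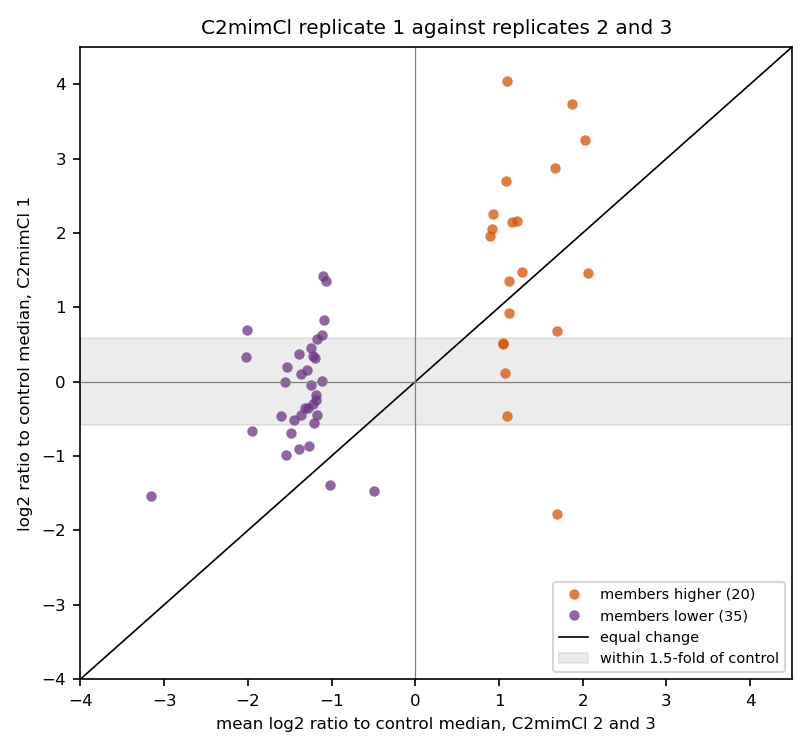
Each point is 1 member; the x axis gives the mean log2 ratio to the control median in C2mimCl 2 and 3 and the y axis that in C2mimCl 1, with the grey band within 1.5-fold of control. Of the 35 lower members 22 lie inside the band and 12 of the 20 higher members lie above the line of equal change.

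Because that library entered the rule, it was also read against genes chosen without it. With the medians taken over C2mimCl 2 and 3 only, 48 lower and 19 higher genes met the rule. The omitted C2mimCl 1 was at or under 0.5 of control in 2 of the 48 lower genes and had a median ratio of 0.836 there. It was at least 2 times control in 10 of the 19 higher genes, with a median ratio of 2.55. With C2mimCl 2 omitted, 8 lower and 38 higher genes met the rule, and C2mimCl 2 passed 2-fold in 6 and 11 of them. With C2mimCl 3 omitted there were 14 and 37, and C2mimCl 3 passed 2-fold in 7 and 16. Lower genes thus outnumbered higher ones without C2mimCl 1, and higher genes outnumbered lower ones when either of the other C2mimCl libraries was omitted. These sets share the control libraries with the omitted library's ratio.

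The controls themselves were spread in many of the members. The highest control library was more than 2 times the lowest in 11 of 35 lower and 3 of 20 higher members, against 1.37% of the 3586 genes. Control 3 was the lowest control in 26 of the 35 lower members, or 74.3%, against 38.8% of the 3586 genes. In 14 of the 35 it was below 0.667 of the control median, as it was in 74 of the 3586 genes. The next count uses values of the rule and was not made over the 3586 genes. On the log2 scale 14 lower members had control 3 nearer the mean of C2mimCl 2 and 3 than that of control 1 and 2. Dapma7bEVm001081, named after its values were seen, shows this order with 100, 109 and 45.0 CPM in controls and 101, 45.8 and 46.9 CPM after C2mimCl. A library trait ran in the same order: reads outside genes were 7.87%, 8.39% and 6.32% of control libraries 1 to 3 and 7.62%, 5.84% and 6.14% of C2mimCl libraries 1 to 3. They were 5.83%, 5.51% and 5.25% of CholCl libraries 1 to 3, where the lower members had median ratios of 0.81, 0.931 and 1.01. The trait and these ratios thus ran in opposite order after CholCl. After C12mimCl the reads outside genes were 9.83%, 10.1% and 8.11% in libraries 1 to 3, where those median ratios were 1.17, 1.32 and 1.04. The part of this trait in the result was not tested.

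In the other salts the members' medians were spread over the allowed band. After C12mimCl 24 of 35 lower members were above control, or 68.6%, against 53.3% of the 3586 genes, and after CholCl 14 were, or 40%, against 57.4%. Of the 20 higher members 10 were above control after C12mimCl and 12 after CholCl. The CholCl medians of 23 of the 35 lower and 11 of the 20 higher members were more than 1.2-fold from control, where 48.4% of the 3586 genes were. The C12mimCl medians of 14 of the 35 lower and 14 of the 20 higher members were so, where 51.5% of the 3586 genes were. Single libraries could leave the band while the medians stayed in it: CholCl 3 was more than 1.5 times control in 5 higher and 5 lower members, and C12mimCl 2 was so in 8 lower members. Of the 3586 genes, 79 were more than 1.5 times control in CholCl 3 and 188 in C12mimCl 2. Counting both sides of the band, 3.32% to 7.67% of the 3586 genes left it in a single CholCl library. In a single C12mimCl library 5.88% to 7.92% did.

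The members whose C2mimCl libraries stood apart from the rest were mostly higher ones. All 3 C2mimCl libraries were above the 3 controls in 17 of 20 higher members, where 8.72% of genes with a control median of 5 or more had this order, and below them in 10 of 35 lower members, where 9.9% did. They were above all 9 other libraries in 14 higher members (1.98% of those genes) and below all 9 in 7 lower members (1.28%). The 7 lower genes, named after their values were seen, were Dapma7bEVm009503, Dapma7bEVm027507, Dapma7bEVm027933, Dapma7bEVm015147, Dapma7bEVm000183, Dapma7bEVm004754 and Dapma7bEVm027538. In Dapma7bEVm000183 the controls had 83.9, 125 and 113 CPM and the C2mimCl libraries 43.2, 50.6 and 61.0 CPM. C2mimCl 1 was there the lowest of its group, as it was among the lower members otherwise only in Dapma7bEVm008725. As the rule used these values, nothing is read from these shares.

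In a model of all 15847 genes that passed a filter on low counts, and which held all 55 members, C2mimCl was compared with each other group by edgeR's quasi-likelihood test at a Benjamini-Hochberg adjusted p below 0.05. Against control 9 of 20 higher members were called higher, where 0.776% of genes were, and 1 of 35 lower members was called lower, where 0.656% were. That gene was Dapma7bEVm000183, and the 10 members were 4.41% of the 227 genes called. It was the only lower member called, and no lower member (0 of 35) was called by edgeR with RLE or upper-quartile scaling, with the replicate number as a block, or without any 1 of the controls. With all libraries and TMM scaling 18 of 20 higher and 17 of 35 lower members had an unadjusted p below 0.05 in edgeR's test. The share of all genes with such a p was not counted and the rule used these values, so nothing is read from these numbers. Without control 1, 2 or 3, or without C2mimCl 3, the members called were 1, 1, 1 and 4, among 34, 23, 91 and 63 genes called. Without C2mimCl 1 they were 40, of which 27 were lower, among 2445 genes called. Without C12mimCl 1 or CholCl 1 they were 5 and 6, among 123 and 146. The median log2 fold change of the fit was 1.41 in the higher and -0.73 in the lower members, against 0.01 over all genes tested. It ranged from 0.30 to 3.01 in the higher and from -2.40 to 0.33 in the lower members. The lower members Dapma7bEVm001288 (0.32) and Dapma7bEVm027579 (0.33) were thus above control in the fit.

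Against C12mimCl 16 higher members were called higher (24.7% of genes were) and 18 lower members lower (20.4% of genes). Against CholCl the same was true of 16 higher members (17.6% of genes) and 11 lower members (11.6% of genes). Without C2mimCl 1 the members called against CholCl were 45 among 4373 genes called, instead of 27 among 4625, and without CholCl 2 they were 17 among 2974. The rule used the groups of all 3 comparisons, so these counts are no support for the choice. They describe how far the fitted group means of the members, not their medians, stood apart relative to the spread of the libraries. The number of members called against control was 25 with DESeq2's Wald test, of which 14 were higher and 11 lower. That test called 1030 genes in all, 530 higher and 500 lower, where edgeR's called 227.

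The number of genes that met the rule was 33 without control 2, with 14 higher and 19 lower, of which 23 were among the 55. With group means in place of medians 27 higher and 11 lower genes met it. A total of 5 higher members and no lower member (0 of 35) met the rule whichever of the 12 libraries was left out. They were Dapma7bEVm004652, Dapma7bEVm007513, Dapma7bEVm007705 and Dapma7bEVm018388, described above, and Dapma7bEVm015488. The last had 10.7, 7.93 and 9.30 CPM in controls and 60.7, 20.4 and 19.3 CPM after C2mimCl. It had 6.31 to 8.85 CPM after C12mimCl and 9.16 to 10.2 CPM after CholCl, below each C2mimCl library.

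**Figure D4:**
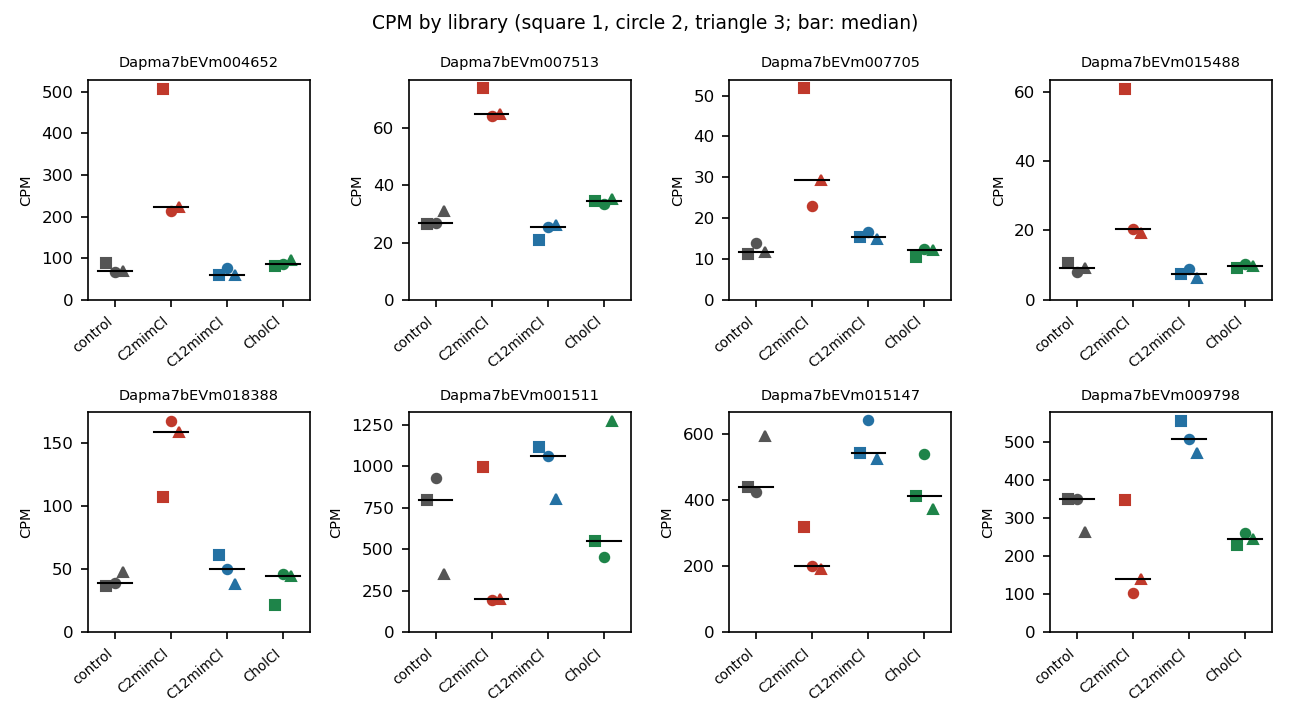
CPM in each library for the 5 members that met the rule whichever library was left out, and for the 3 lower members with the highest control medians; squares, circles and triangles are replicates 1, 2 and 3, and bars are group medians. In the former the C2mimCl points lie above the other 9, and the C2mimCl square lies above all controls in Dapma7bEVm001511 and within the control range in Dapma7bEVm009798.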

How the data were processed

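mRNA of whole Daphnia magna was measured in 12 libraries, 3 for each of 4 groups. The files the authors deposited give raw read counts for each gene. Per the submitters' processing notes, the tools were Trimmomatic 0.39, STAR 2.7.3a and HTSeq; per the labels' protocols the kit was stranded and reads were 150 bp, paired. Genome build, annotation and strand setting are not stated in the labels, so overlapping genes and near-identical copies are uncertain. Rows naming no gene (13% to 20.1% of a library) were left out.

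CPM used edgeR 4.0.16 (R 4.3.3) with TMM factors over genes with 10 or more reads in total. The fit used all 12 libraries with 1 mean per group, a robust quasi-likelihood model and edgeR's filter (minimum count 10, minimum total 15). It was also run on simulated data in which no library stood apart from its group. That run does not cover a library such as C2mimCl 1. Alternatives were other scalings, filters, thresholds, DESeq2 1.42.0, a replicate block and leaving out each library. The members and lists were chosen with earlier results of these data known. Named genes were the 10 largest ratios, 3 highest control medians and 3 widest departures of C2mimCl 1 in each direction, with the 2 genes on either side of each 2-fold limit; others were chosen after their values were seen. Replicates are separate vessels. Counts carry no molecular identifiers.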

Additional observations from a re-analysis of the deposited data

How the results depend on the processing

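The number of members depended on the limits of the rule. A 1.5-fold limit gave 227 genes (97 higher, 130 lower), a 3-fold limit 8 (4 and 4), and a wider band for the other salts, 0.5 to 2 times control, 161 (49 and 112). With group means in place of medians 27 genes were higher and 11 lower, and 18 of the 55 members were among them. RLE scaling gave 47 genes and upper-quartile scaling 45, with 40 and 26 of the members among them. Other level limits, an added 1 CPM and edgeR's filter kept the total within 1.5 times of 55. A control median of 5 read before 0.1 is added, an alternative chosen after seeing the data, gave 54.

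Over the sets that each left out 1 library, the genes meeting the rule numbered 33 to 67 (14 to 38 higher, 8 to 48 lower). Genes called against control numbered 23 to 2445, against 227 with all libraries, and members called 1 to 40, against 10. Against CholCl these were 2337 to 4842 genes, against 4625, and 17 to 45 members. DESeq2's Wald test called 1030 genes and 25 members against control. Against C12mimCl no alternative moved either count by over 1.5 times. With upper-quartile scaling the median log2 difference over all genes was -0.17 against C12mimCl and -0.13 against CholCl, instead of 0.00 and 0.07, and the genes called were 3214 higher and 4306 lower (from 3914 and 3230) and 2101 and 3451 (from 2791 and 1834). Against control they were 165 and 92 with it (from 123 and 104).

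Leaving out 1 library turned the direction of some named lower members, in the fit's log2 fold changes. With all 12 libraries Dapma7bEVm001288 and Dapma7bEVm027579 were above control in the fit (0.32 and 0.33), and they were below it without C2mimCl 1. Dapma7bEVm000855 and Dapma7bEVm000927 were below control with all 12 libraries (-0.33 and -0.22). With 1 library left out, the log2 fold changes against control ranged from -1.82 to 0.10 for Dapma7bEVm000855 and -1.04 to 0.72 for Dapma7bEVm001288. They ranged from -0.96 to 0.71 for Dapma7bEVm027579 and -1.003 to 0.12 for Dapma7bEVm000927. Against C12mimCl they ranged from -1.61 to 0.19 for Dapma7bEVm001288 and -1.45 to 0.26 for Dapma7bEVm027579. Against CholCl they ranged from -1.71 to 0.19 for Dapma7bEVm000855, -1.69 to 0.33 for Dapma7bEVm001288 and -1.59 to 0.33 for Dapma7bEVm027579. The lowest value of each came without C2mimCl 1. The cause was not tested.

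With the replicate number as a replicate block, 208 genes and 7 members (7 higher, 0 lower) were called against control, 6866 and 34 against C12mimCl, and 4195 and 25 against CholCl. Deviations of same-numbered libraries from their group means correlated between -0.406 and 0.426 over all numbers. For number 3 all 6 pairs were positive (0.152 to 0.426), whereas numbers 1 and 2 also had negative pairs, and 4 of 12 libraries correlated best with one of their own number. The numbers were therefore not taken to pair the vessels. Members with few reads, down to 16 in a library, carry the widest counting error.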
